A study of Mus musculus with 6 samples.

Results

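The natriuretic peptide system was followed through 6 transcripts in mouse left ventricle: the peptide genes Nppa and Nppb, the processing enzyme gene Corin and the receptor genes Npr1, Npr2 and Npr3. They were taken by symbol from a table of 34945 gene symbols. All 6 were present and all 6 passed the filter on low counts that left 13485 genes to be tested. The tissue came from 3 mice with the 4SA-Rad knock-in genotype and 3 wild-type mice, all labelled as strain C57BL/6N and as myocardium. Rad is a small GTP-binding protein of heart muscle that restrains calcium channels, and the name 4SA denotes serines replaced by alanine, so that Rad can no longer be phosphorylated there. Whether the allele was carried in 1 or both copies, and the age and sex of the mice, are not given in the labels. The comparison is knock-in against wild-type ventricle.

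Heart muscle cells make atrial natriuretic peptide (ANP) and B-type natriuretic peptide (BNP) as precursors, which proteases cleave before the peptides act on vessels, kidney and the heart itself. Both peptides bind Npr1, a membrane guanylyl cyclase that makes the second messenger cyclic GMP, while Npr2 is the cyclase receptor of the C-type peptide and Npr3 removes peptides from the circulation. In the adult ventricle Nppa and Nppb are low compared with the atria and are known to rise with wall stress and hypertrophy.

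In knock-in ventricles Nppb was lower and the other 5 members did not pass the test. Of the 6 members 1 fell and none rose, beside 5.01% of all tested genes that fell and 4.00% that rose, or 9.01% in either direction. The log2 fold change (knock-in minus wild-type) was below 0 for Nppb (-0.65 ± 0.15, SE), Nppa (-0.40 ± 0.16), Npr3 (-0.31 ± 0.18) and Npr1 (-0.21 ± 0.09), and near 0 for Corin (0.03 ± 0.05) and Npr2 (0.06 ± 0.06). The median over the 6 members was -0.26, and over all tested genes 0.00356. The Nppb call did not hold in 5 of 16 other settings, described with the gene below. Calls are made at a Benjamini-Hochberg adjusted p below 0.05 from edgeR's quasi-likelihood test over all tested genes.

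**Figure D1:**
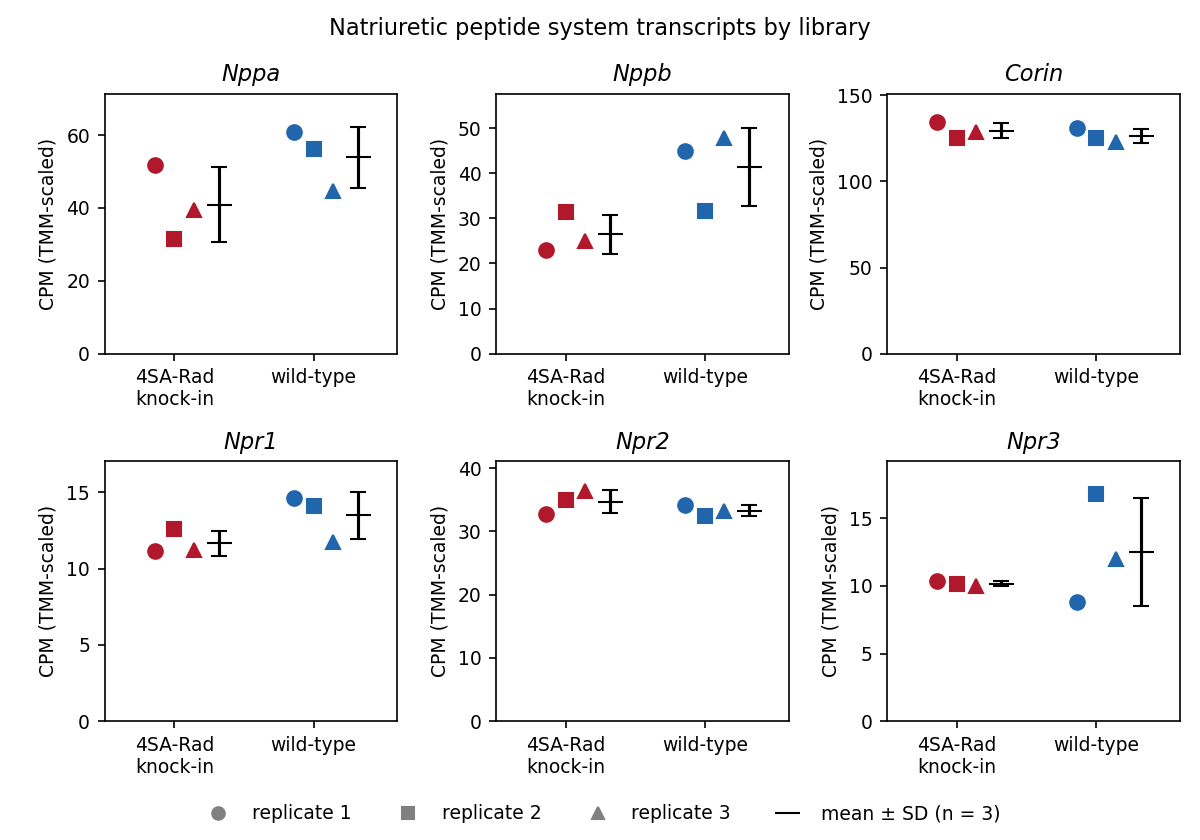
Level of each member in every library, in CPM (counts scaled to library size, with TMM factors), with knock-in mice left (red) and wild-type mice right (blue). Symbols mark replicates and bars the mean ± SD of 3 mice. For Nppb the knock-in libraries (23.1 to 31.3 CPM) lie below the wild-type libraries (31.5 to 47.7 CPM), and for the other 5 members the genotypes overlap.

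The libraries held between 35259459 and 39627397 estimated counts in knock-in and between 24761124 and 32669182 in wild-type mice, so every knock-in library was deeper. Mitochondrial-genome transcripts made up 53.5% to 56.9% of the counts in knock-in and 53.1% to 55.8% in wild-type libraries. The CPM given here are scaled to totals that include them. Cardiomyocyte markers, summed over 10 genes, reached 41363.5 to 42459.5 CPM in knock-in and 39885.6 to 41346.7 CPM in wild-type libraries, and 1 of the 10 fell (Actn2). Endothelial markers (8 genes) summed to 663 to 756 CPM in knock-in and 694 to 752 CPM in wild-type, with 2 fallen (Flt1 and Tie1), and fibroblast markers (9 genes) to 960 to 1087 CPM in knock-in and 980 to 1206 CPM in wild-type, with 1 fallen (Postn). Smooth muscle and pericyte markers (8 genes) summed to 827 to 866 CPM in knock-in and 805 to 846 CPM in wild-type, and 1 rose (Abcc9). Macrophage markers were lower in every knock-in library, at 119 to 137 CPM in knock-in against 165 to 169 CPM in wild-type over 8 genes, 6 of which fell. Mesothelial markers (6 genes) stood at 4.09 to 7.12 CPM in knock-in and 7.71 to 14.4 CPM in wild-type libraries, and 1 of 5 tested fell. Beside these counts, 5.01% of all tested genes fell and 4.00% rose. The part of these marker sets in the differences given here was not tested. Red blood cell markers (6 genes) ranged from 602 to 5300 CPM in knock-in and from 585 to 2226 CPM in wild-type libraries. Rrad, the gene of Rad, was at 27.0, 56.8 and 42.3 CPM in the knock-in libraries (replicates 1 to 3) and 44.7, 29.97 and 32.2 CPM in the wild-type libraries, and gene totals do not tell the alleles apart. Nnt encodes a mitochondrial protein and is known to be truncated in the C57BL/6J substrain. It was at 596 to 730 CPM in knock-in and 262 to 282 CPM in wild-type libraries (log2 fold change 1.32 ± 0.07, edgeR adjusted p = 2e-05). Although 1 strain is given for all, Nnt splits the 6 mice as the genotype does, and effects of substrain and of the Rad allele cannot be told apart in any difference given here. In bulk tissue, fewer cells of a type and less RNA per cell cannot be told apart either.

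Nppb encodes the precursor of BNP and lies on chromosome 4 from 147985788 to 147987205 on the plus strand of GRCm38. Knock-in replicates 1 to 3 had 23.1, 31.3 and 25.0 CPM of Nppb, and wild-type replicates 1 to 3 had 45.0, 31.5 and 47.7 CPM, from 761 to 1553 counts per library. Every knock-in library was below every wild-type library, but the highest knock-in value and the lowest wild-type value, in wild-type replicate 2, were nearly equal. Ranges without overlap were found in 29.4% of tested genes, and in 15.1% with knock-in lower. The means were 26.4 ± 4.32 CPM in knock-in and 41.4 ± 8.67 CPM in wild-type mice (SD, n = 3 each), and the level fell by 36.1% (edgeR adjusted p = 0.0264). The 95% interval of the fold runs from 0.508 to 0.805. The spread between mice, a coefficient of variation of 16.3% in knock-in and 20.9% in wild-type, was well above the 3.24% in knock-in and 2.82% in wild-type that counting alone would give. The gene did not pass without knock-in replicate 3 (edgeR adjusted p = 0.123), wild-type replicate 1 (0.0867) or wild-type replicate 3 (0.104), nor with robust dispersions (0.158). The call also ended when an atrial score was added to the model (log2 fold change -0.41 ± 0.12, edgeR adjusted p = 0.0935). In these 5 fits the log2 fold change lay between -0.65 and -0.41.

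Nppa encodes the precursor of ANP and lies downstream of Nppb on the same strand, from 148000722 to 148002079, with 13516 bases between the genes. Knock-in replicates 1 to 3 had 51.8, 31.3 and 39.5 CPM of Nppa, and wild-type replicates 1 to 3 had 60.7, 56.3 and 44.7 CPM. Knock-in replicate 1 lay inside the wild-type range, while knock-in replicates 2 and 3 lay below it. Means were 40.9 ± 10.3 CPM in knock-in and 53.9 ± 8.30 CPM in wild-type mice (SD, n = 3 each). The difference did not pass, with an edgeR adjusted p of 0.151. Its 95% interval, a fold of 0.594 to 0.970, overlaps that of Nppb. Without knock-in replicate 1 the log2 fold change of Nppa was -0.60 ± 0.13 and passed (edgeR adjusted p = 0.0152), and without knock-in replicate 2 it was -0.24 ± 0.13 (0.351).

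A test of the difference between the peptides used their ratio within each library, which no scaling affects. The ratio of Nppb to Nppa counts was 0.445, 0.999 and 0.632 in knock-in replicates 1 to 3, against 0.741, 0.560 and 1.07 in wild-type replicates 1 to 3. The genotypes overlapped widely, and the difference was -0.22 on the log2 scale (exact permutation test, two-sided p = 0.7, n = 3 each). With 3 mice a genotype the smallest p this test allows is 0.1, so it cannot pass 0.05 and does not show whether the peptides differ in their change. Deviations of log2-CPM from the genotype means had a Pearson r of -0.64 between Nppa and Nppb over 6 libraries, whose deviations sum to 0 within a genotype. Knock-in replicate 1 had the highest Nppa and the lowest Nppb of its genotype, and wild-type replicate 3 the lowest Nppa and the highest Nppb of its own.

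Both peptides are typical of atrial muscle, and atrial markers differed between libraries of 1 genotype. Summed over 9 genes they gave 170, 119 and 130 CPM in the knock-in libraries, against 90.2, 167 and 71.6 CPM in the wild-type libraries, and 0 of 8 tested members passed. Kcnj3 was the largest part of each sum, at 61.6 to 69.8 CPM in knock-in and 51.1 to 63.6 CPM in wild-type libraries. An atrial score, averaged on the log2 scale from Myl4, Myl7 and Sln and centred on the wild-type mice, was 2.07, 1.251 and 1.38 in the knock-in libraries and 0.21, 2.14 and -2.34 in the wild-type libraries. The other listed markers were left out of the score. Of the tested ones among them, Mybphl, Dkk3, Stard10 and Kcnj3 were also lowest in wild-type replicate 3. Gja5 was highest there (4.55 CPM), so the score does not stand for every listed marker. Bmp10, a hormone gene of the right atrium, had 0 counts in all 3 knock-in libraries and 1 or 2 counts in each wild-type library. Nppb was highest in the libraries with the lowest atrial sums, wild-type replicates 3 and 1, and lowest in knock-in replicate 1, which had the highest sum. Wild-type replicate 2 departed from that order, with the highest atrial score of the 6. Its sum was above those of knock-in replicates 2 and 3. Its Nppb of 31.5 CPM was above that of every knock-in library, though nearly equal to the 31.3 CPM of knock-in replicate 2. Nppa was highest in wild-type replicate 1 and lowest in knock-in replicate 2, which were not at the ends of the range of atrial sums. With the atrial score in the model the log2 fold change of Nppb was -0.41 and that of Nppa -0.56 ± 0.17 (edgeR adjusted p = 0.0962). In that model 451 of 13485 genes passed, against 1215 without it. The part of atrial tissue in these differences was not tested beyond this fit.

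**Figure D2:**
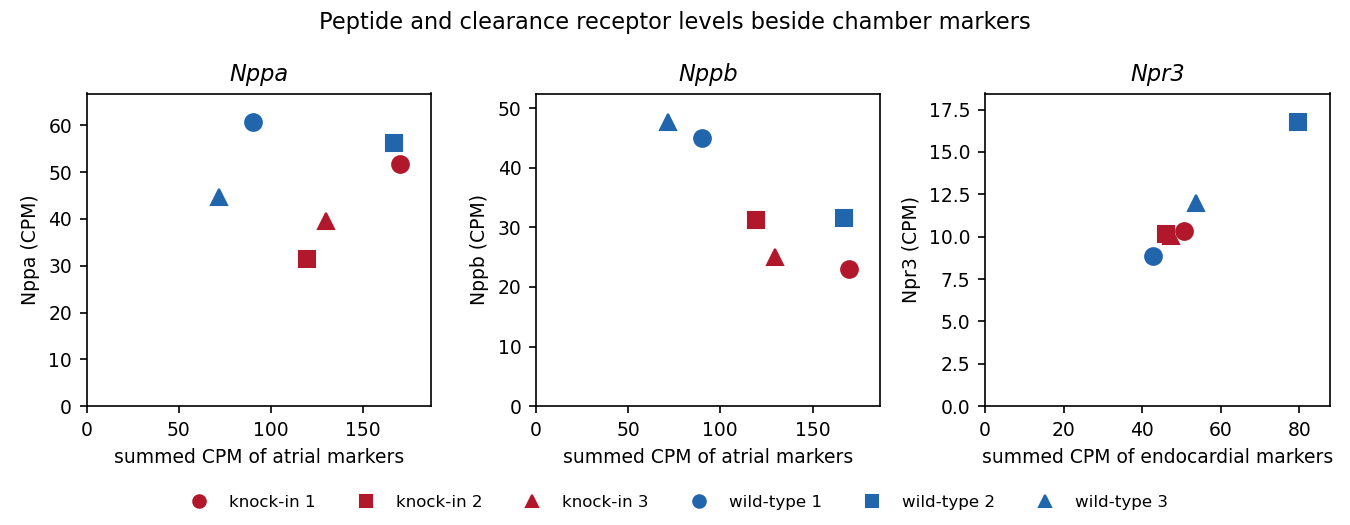
Nppa and Nppb against the summed CPM of 9 atrial markers, and Npr3 against that of 8 endocardial markers, with 1 point per library (knock-in red, wild-type blue, symbols for replicates). Nppb is highest (45.0 and 47.7 CPM) where atrial markers are lowest (90.2 and 71.6 CPM), and Npr3 is highest (16.8 CPM) in wild-type replicate 2, where endocardial markers reach 79.7 CPM.

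The bases just upstream of the RefSeq start of both peptide genes are shown. They carry letters that cardiac transcription factors are known to bind, and several of these factors were measured. Sequences are from RefSeq promoters of GRCm38.p6, in which 6 of 6 members had an entry. Each is written along the plus strand, which is the coding strand of both genes. Capitals mark matches, on either strand, to 5 kinds of letters. The motif of GATA factors was spelled with A or T first and A or G last, thus AGATAA when both are A, and further spellings were TGATAA with T first, AGATAG with G last and TGATAG with both changes. The element bound by Nkx2-5, called NKE, was searched as TNAAGTG. The T-box motif was searched as TCACACC. The MCAT motif of TEAD factors was searched as CATTCC. The TATA motif was searched as TATAAA. The 250 bases before the start of Nppa are chr4:148000472-148000721.
Nppa upstream: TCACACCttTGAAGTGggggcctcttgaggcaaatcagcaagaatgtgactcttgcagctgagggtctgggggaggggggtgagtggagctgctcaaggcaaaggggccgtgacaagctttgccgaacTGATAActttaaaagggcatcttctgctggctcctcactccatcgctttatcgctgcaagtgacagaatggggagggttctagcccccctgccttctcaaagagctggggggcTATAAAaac
For Nppb, GENCODE M21 begins the gene upstream of the start that RefSeq uses. The Nppb matches thus lie before the RefSeq start but inside the gene as GENCODE M21 places it. The 138 searched bases before the GENCODE M21 start of Nppb held no match. Only a window of 30 bases over the GATA matches of Nppb (chr4:147985795-147985824) is set beside the window over that of Nppa (chr4:148000592-148000621).
Nppa window: tgccgaacTGATAActttaaaagggcatct
Nppb window: GGAATGcagcTGATAAatcagAGATAAccc
Positions are counted backwards from the RefSeq start. Nppa held 1 GATA match at -122 and Nppb held 2, at -95 and -84, with no overlap between motifs in either gene. At least 1 GATA match was present in 26.6% of 32817 promoters of 250 bases, and at least 2 in 6.41%. Nppa also had a T-box match at -250 and an NKE match at -241, letters found in 3.33% and 10.1% of promoters. Nppb had an MCAT match on the opposite strand at -105, found in 12.6%. A TATA match stood at -9 in Nppa and at -31 in Nppb (12.4% of promoters). The CArG box, searched only as CC, then 6 letters of A or T, then GG, had no match in these 2 windows of 250 bases. Looser forms of it were not searched. The AP-1 letters TGANTCA and the CRE letters TGACGTCA had no match there either. A match describes letters only.

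The proteins known to act on Nppa or Nppb transcription were examined as a list of 33 genes, of which 32 were tested. Of these 4 rose, 1 fell and 27 did not pass. The share called was 15.6% against 9.01% of all tested genes, and the median log2 fold change was 0.00123. Tbx5, a T-box factor that activates Nppa, rose to 20.3 ± 0.460 CPM in knock-in, against 14.9 ± 1.14 CPM in wild-type mice (log2 fold change 0.45 ± 0.07, edgeR adjusted p = 0.00409). It passed in all 16 other settings. Mef2a, a MADS-box factor of muscle, had 153, 157 and 156 CPM in the knock-in libraries and 124, 140 and 134 CPM in the wild-type libraries and rose (0.23 ± 0.05, edgeR adjusted p = 0.0217). Its call ended without knock-in replicates 2 or 3 or wild-type replicates 1 or 3 (edgeR adjusted p = 0.0653, 0.0957, 0.0532 and 0.0646). Mrtfb, a coactivator of serum response factor, rose by 0.28 ± 0.06 on the log2 scale (edgeR adjusted p = 0.0249), but not without knock-in replicate 3 or wild-type replicates 2 or 3 (0.109, 0.0699 and 0.0894). With library size alone as the scaling neither Mef2a (edgeR adjusted p = 0.195) nor Mrtfb (0.167) passed. Hey2, a Notch-induced repressor of atrial genes in ventricular muscle, rose to 3.75 ± 0.342 CPM in knock-in against 2.39 ± 0.224 CPM in wild-type mice (edgeR adjusted p = 0.0228). Hey2 passed without knock-in replicate 1 (edgeR adjusted p = 0.0436) and stood between 0.0541 and 0.0671 without each of the other 5 libraries. With the atrial score in the model Mef2a (edgeR adjusted p = 0.0900), Mrtfb (0.104) and Hey2 (0.0775) did not pass.

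The member of that list that fell was Egr1, an immediate early zinc-finger factor induced by stretch and growth stimuli. Its level was 7.36, 14.8 and 9.62 CPM in the knock-in libraries, against 70.8, 61.1 and 15.8 CPM in the wild-type libraries (log2 fold change -2.21 ± 0.45, edgeR adjusted p = 0.0167). Wild-type replicate 3, close to the knock-in range for Egr1, had the highest Nppb. Any link between the levels of Egr1 and Nppb was not tested. Egr1 did not pass without knock-in replicate 3 (edgeR adjusted p = 0.0935) or wild-type replicate 1 (0.0546), nor with robust dispersions (0.157) or limma-voom (0.0539). Among listed factors whose letters stand upstream of the RefSeq starts of the peptide genes, Tbx5 passed, as given above. Gata4 (0.21 ± 0.06, edgeR adjusted p = 0.0546), Gata6 (0.00 ± 0.09) and Nkx2-5 (-0.18 ± 0.08) did not pass. Tbx20, Tbx2, Tbx3, Tead1 and Tead4 did not pass either (edgeR adjusted p between 0.0942 and 0.318). Apart from Tbx5, these factors were chosen for mention after their values were seen.

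Around the pair of peptide genes, 11 other tested genes lay within 150 kb. Of these 1 fell and 10 did not pass, a share near the 9.01% called among all tested genes, with log2 fold changes from -0.32 to 0.23. The gene that fell was Plod1, a lysyl hydroxylase of collagen (-0.32 ± 0.05, edgeR adjusted p = 0.00777, and 0.052 without knock-in replicate 3). The nearest genes on either side, 2510039O18Rik (-0.07 ± 0.07) and Clcn6 (0.08 ± 0.10), taken for their position, did not pass.

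Corin encodes a serine protease on the surface of heart muscle cells that cleaves the ANP precursor, and is found on the minus strand of chromosome 5, from 72300025 to 72504473. Its level was 134, 125 and 129 CPM in the knock-in libraries and 131, 125 and 123 CPM in the wild-type libraries, each in replicate order. The genotypes overlapped, and the spread between mice was 3.47% in knock-in and 3.31% in wild-type, where counting alone would give 1.46% in knock-in and 1.61% in wild-type. The difference did not pass (95% interval of the fold 0.955 to 1.099, log2 fold change 0.03 ± 0.05, edgeR adjusted p = 0.694), and its sign turned with library size alone as the scaling (-0.05 ± 0.06). The deviations of Corin and Nppa from their genotype means had a Pearson r of 0.93 over 6 libraries, while those of Corin and Nppb had -0.31. The value of 0.93 was the highest of all pairs of members. Of 6215 genes, 143 had an r above 0.9 with Nppa and 140 with Corin, so it does not single out this pair.

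Other ligands and processing genes formed a list of 7, of which 5 were tested, 1 fell and 4 did not pass (median log2 fold change -0.15), where 5.01% of all tested genes fell. Furin, a proprotein convertase that cleaves the BNP precursor, had 43.5, 40.1 and 40.4 CPM in the knock-in libraries and 45.8, 47.4 and 49.9 CPM in the wild-type libraries. Every knock-in library was below every wild-type library, as in 15.1% of tested genes, and Furin fell by 0.21 ± 0.05 on the log2 scale (edgeR adjusted p = 0.0427). It passed without knock-in replicate 1 (edgeR adjusted p = 0.02), and stood between 0.0509 and 0.169 without each of the other 5 libraries and at 0.0533 with upper-quartile factors, and at 0.156 with the atrial score. Pcsk6, the convertase known to activate corin, had a log2 fold change of -0.15 ± 0.05 and did not pass (edgeR adjusted p = 0.119). Nppc, the gene of the C-type peptide, had 0 or 1 count in every library, under the floor of 3 counts, and Ostn, a ligand of Npr3, had 0 to 4. Pcsk6 and Ostn were chosen for mention after their values were seen. Peptide breakdown was represented by 6 genes, 4 of them tested, and none passed (median log2 fold change -0.14). Mme, encoding neprilysin, was at 7.83 ± 0.791 CPM in knock-in and 7.37 ± 0.554 CPM in wild-type mice (edgeR adjusted p = 0.666). Dpp4, the tested gene of that list with the smallest p, had a log2 fold change of -0.27 ± 0.25 (0.551).

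Npr1, the cyclase receptor of ANP and BNP, is found on the minus strand of chromosome 3, from 90450591 to 90465866. Its level was 11.2, 12.6 and 11.2 CPM in the knock-in libraries and 14.6, 14.1 and 11.7 CPM in the wild-type libraries, in the same order. Knock-in replicates 1 and 3 lay below all wild-type libraries, and knock-in replicate 2 lay above wild-type replicate 3. The difference did not pass (log2 fold change -0.21 ± 0.09, 95% interval of the fold 0.751 to 1.001, edgeR adjusted p = 0.201). With 369 to 473 counts per library, counting alone gives 4.88% in knock-in and 4.94% in wild-type, against spreads between mice of 7.05% in knock-in and 11.4% in wild-type.

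Npr2, the cyclase receptor of the C-type peptide, lies on chromosome 4 from 43631935 to 43651244 on the plus strand, far from the peptide genes. The knock-in libraries had 32.8, 34.98 and 36.4 CPM of Npr2, and the wild-type libraries 34.2, 32.5 and 33.1 CPM. The groups overlapped, and the log2 fold change of 0.06 ± 0.06 did not pass (95% interval of the fold 0.956 to 1.14, edgeR adjusted p = 0.555). Library size alone turned its sign (-0.02 ± 0.08). The ligand gene Nppc was hardly detected in the same libraries.

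Npr3, the clearance receptor, which has no cyclase domain, is found on the minus strand of chromosome 15, from 11839896 to 11907287. The knock-in libraries had 10.4, 10.2 and 10.01 CPM of Npr3, and the wild-type libraries 8.84, 16.8 and 12.01 CPM, in replicate order. The knock-in libraries were nearly equal and lay between the lowest and the middle wild-type library. The spread was 1.72% in knock-in, under the 5.22% of counting alone, and 31.8% in wild-type. The difference did not pass (log2 fold change -0.31 ± 0.18, edgeR adjusted p = 0.308), and leaving out wild-type replicate 2 gave -0.04 ± 0.12 (edgeR adjusted p = 0.877), while leaving out wild-type replicate 1 gave -0.50 ± 0.13 (0.0552). Npr3 is a marker of the endocardium, the lining of the chambers. Endocardial markers, summed over 8 other genes, reached 50.5, 46.0 and 47.2 CPM in the knock-in libraries and 42.8, 79.7 and 53.6 CPM in the wild-type libraries, and 0 of 7 tested members passed. Wild-type replicate 2 had the highest level of 5 of the 8 markers, and Vwf, an endothelial clotting protein, gave most of the sum there (51.2 CPM). Per 100 CPM of these markers there were 20.5 to 22.1 CPM of Npr3 in knock-in and 20.7 to 22.4 CPM in wild-type libraries, so that the genotypes overlapped almost fully. This ratio was formed after the values were seen, and the part of endocardial tissue in the level of Npr3 was not tested.

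Clearance and signalling receptor were also set against each other within libraries. The ratio of Npr3 to Npr1 counts was 0.927, 0.806 and 0.894 in knock-in replicates 1 to 3, against 0.605, 1.19 and 1.02 in wild-type replicates 1 to 3. The knock-in values lay inside the wild-type range, and the difference was -0.05 on the log2 scale (exact permutation test, two-sided p = 0.9, n = 3 each). This test too cannot go below 0.1.

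Levels were compared between genes as CPM per kb of the longest coding transcript in GENCODE M21. In knock-in ventricles Nppa stood at 47.3 ± 11.9, Nppb at 33.9 ± 5.54, Corin at 26.6 ± 0.924, Npr2 at 9.48 ± 0.493, Npr1 at 2.87 ± 0.202 and Npr3 at 1.48 ± 0.0254 CPM per kb (SD, n = 3). In wild-type ventricles the levels were 62.3 ± 9.60 for Nppa, 53.0 ± 11.1 for Nppb, 26.0 ± 0.862 for Corin, 9.10 ± 0.241 for Npr2, 3.32 ± 0.377 for Npr1 and 1.82 ± 0.579 for Npr3. The order of the means was the same in both genotypes. Only Nppa and Nppb overlapped as neighbours in this order, in each genotype, and Nppb was the higher of the pair in knock-in replicate 2 and wild-type replicate 3. The peptide genes ranked above 96.5% (Nppa) and 95.8% (Nppb) of tested coding genes by this measure, Corin above 93.2%, Npr2 above 80.2%, Npr1 above 53.1% and Npr3 above 37.1%. With the exonic length of all annotated transcripts, chosen after the data were seen, knock-in levels were lower for the 4 genes with several transcripts, such as 7.44 for Npr2 and 1.08 CPM per kb for Npr3, and the order was the same.

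**Figure D3:**
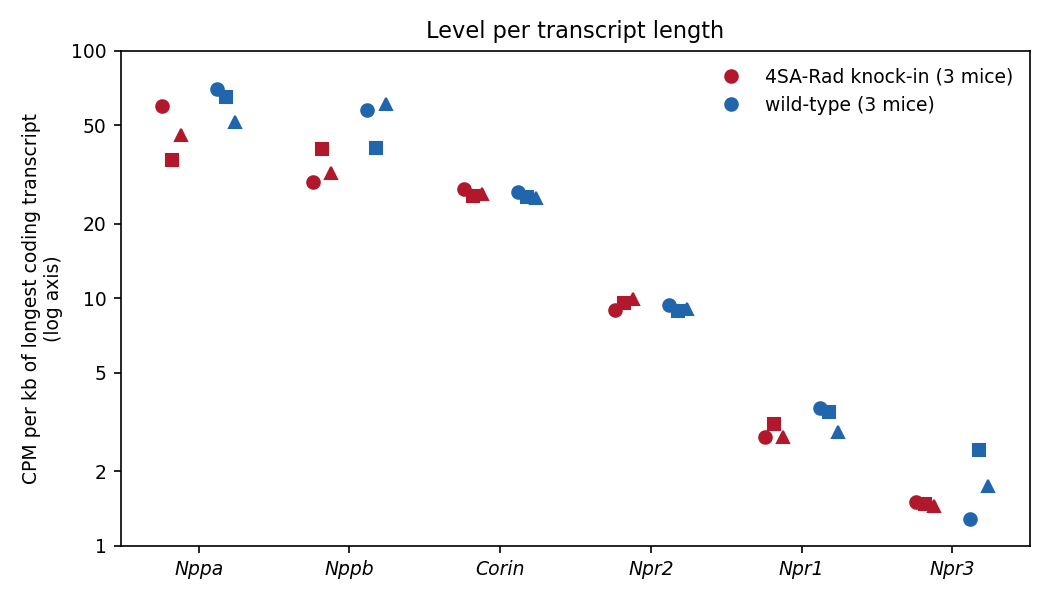
Level per kb of the longest coding transcript on a log axis for each member, with knock-in libraries left (red) and wild-type libraries right (blue) and 1 point per mouse. Nppa, Nppb and Corin lie between 25.3 and 70.2, Npr2 between 8.88 and 9.94 and Npr1 and Npr3 between 1.28 and 3.59 CPM per kb.

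Beyond the peptides and receptors, the sources, targets and breakdown of cyclic GMP were examined as 3 lists. Of 10 other cyclic GMP sources 5 were tested, 1 rose and 4 did not pass (median log2 fold change 0.16), where 4.00% of all tested genes rose. The gene that rose, Gucy2e, a photoreceptor guanylyl cyclase, rested on 12, 11 and 12 counts in knock-in and 1, 5 and 1 in wild-type replicates 1 to 3 (edgeR adjusted p = 0.0486). It did not pass without wild-type replicate 1 (edgeR adjusted p = 0.138) or wild-type replicate 3 (0.164), and did not reach the low-count filter without any 1 knock-in library. It did not pass with library size alone (0.0535), without the filter (0.063) or with the atrial score (0.14). The subunit Gucy1a1 of the soluble, nitric oxide-sensitive cyclase had a log2 fold change of 0.35 ± 0.10 and the endothelial nitric oxide synthase gene Nos3 one of -0.34 ± 0.10, and neither passed (edgeR adjusted p = 0.0571 and 0.0595). Both were chosen for mention after their values were seen.

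Of 10 genes for targets of cyclic GMP 8 were tested and none passed (median log2 fold change -0.12). Prkg1, the cyclic GMP-dependent kinase of heart and vessel muscle, was at 5.08 ± 0.488 CPM in knock-in and 5.06 ± 0.127 CPM in wild-type mice (edgeR adjusted p = 0.974). Rgs4, a regulator of G-protein signalling with the smallest p of that list, had a log2 fold change of -0.40 ± 0.14 (0.0936). The third list held 10 phosphodiesterases that break down cyclic GMP, alone or with cyclic AMP. All 10 were tested, and 1 fell and 9 did not pass (median 0.08), where 5.01% of all tested genes fell. Pde3b fell to 2.92 ± 0.281 CPM in knock-in, against 4.75 ± 0.456 CPM in wild-type mice (log2 fold change -0.71 ± 0.13, edgeR adjusted p = 0.0111). It did not pass without knock-in replicate 3 (edgeR adjusted p = 0.0589) or wild-type replicate 3 (0.0506), nor with the atrial score (0.0511). Pde5a, a phosphodiesterase specific for cyclic GMP, had a log2 fold change of -0.13 ± 0.13 and did not pass (edgeR adjusted p = 0.601). Over all 6 pathway lists, 5 of 64 tested genes rose and 3 fell, a share of 12.5% against 9.01% of all tested genes.

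**Figure D4:**
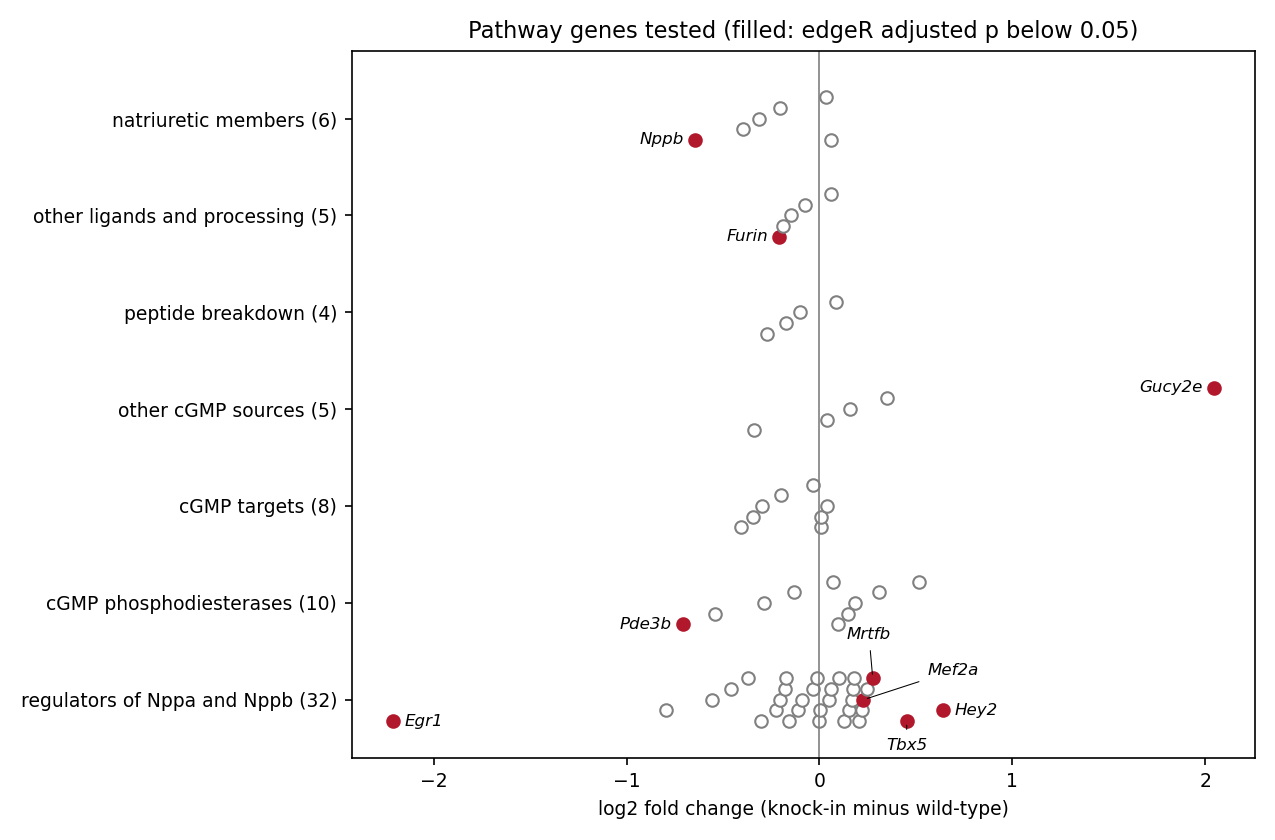
Log2 fold change (knock-in minus wild-type) of each tested gene by list, with the number tested in brackets. Filled points passed an edgeR adjusted p of 0.05 and are named. Calls lie on both sides of 0, with Egr1 (-2.21) and Gucy2e (2.04) farthest out.

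The genes most like each member in their variation between mice of 1 genotype were found from the deviations of log2-CPM over 6 libraries, among 6215 genes with a mean of at least 10 CPM. They were Dnajc5 and Gm10177 for Nppa, Ssbp1 and Ddrgk1 for Nppb, Ncbp2 and Hdlbp for Corin, Dennd4b and Cand2 for Npr1, Tpt1-ps3 and Acp2 for Npr2, and Mtf1 and Ctsh for Npr3. Pearson r lay between 0.992 and 0.999 for these 12 genes, and between 103 and 143 genes had an r above 0.9 with each member, so that the ranking separates few of them. Tpt1-ps3 is a pseudogene, and its estimated counts are uncertain.

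**Figure D5:**
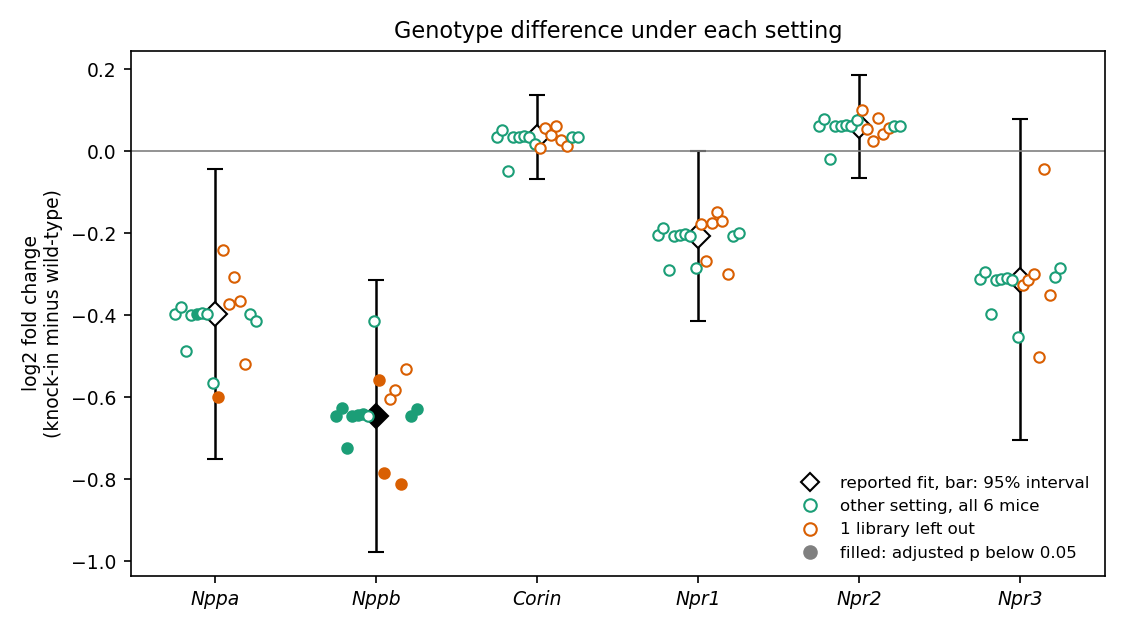
Log2 fold change of each member in the reported fit (diamond, with its 95% interval) and in 16 other settings, 10 with all 6 mice (green) and 6 with a library left out (orange). Filled points passed an adjusted p of 0.05: Nppb in 11 of 16 and Nppa in 2 of 16 settings, and none of the other 4 members in any.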

How the data were processed

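Libraries were made from total RNA of left ventricle with a stranded kit, per the labels' protocols. Tools listed without their role by the submitters' processing notes are kallisto 0.44.0 and bcl2fastq 2.19, and the build is GRCm38. The authors' deposited table holds estimated counts per gene symbol, with no value other than whole numbers. The sources used here do not state the annotation, how transcripts became symbols, or whether strand was used. GENCODE M21 places opposite-strand genes over Nppa, Corin, Npr1, Npr2 and Npr3, so part of their reads could come from those.

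Counts were rounded and tested in edgeR 4.0.16 (R 4.3.3) by knock-in against wild-type over all 6 mice: filterByExpr (13485 genes), TMM, glmQLFit and glmQLFTest, two-sided, Benjamini-Hochberg adjustment over all tested genes. The standard error is the log2 fold change divided by the root of F, and intervals are 95%. CPM are TMM-scaled and log2-CPM have a prior count of 2. Counting percentages cover counting error only. The edgeR test was also run on counts simulated from the dispersions fitted here, with no substrain or atrial effect. The outcome is not given here and is not used as support.

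The 6 members, the lists and the settings were chosen with earlier results of these data known. Named genes are the members, called genes of each list (or that with the smallest p), Nppc, Furin, Mme, Prkg1, Pde5a, Rrad, Nnt and the 2 most similar genes per member. The labels give no litters or batches. The edgeR p-values set a difference against the spread between these mice, with dispersions estimated partly from all tested genes. Older spellings of 5 listed symbols matched no row and stand for genes listed under their current symbol.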

Additional observations from a re-analysis of the deposited data

How the results depend on the processing

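Over 16 other settings (DESeq2 1.42.0, limma-voom with limma 3.58.1, other scalings, filters and dispersions, an atrial covariate, 6 fits with a library left out), Npr1 and Npr3 kept their direction and never passed. Nppb was below 0 in all 16 and passed in 11. Its log2 fold change was -0.65 with robust dispersions and -0.41 with the atrial score, where it did not pass, and -0.81 to -0.53 with a library left out. Nppa passed with no low-count filter (-0.40) and ranged from -0.60 to -0.24 with a library left out. With library size alone, which moved the median of all genes to -0.0782 from 0.00356, Corin (-0.049) and Npr2 (-0.0196) reversed. Without a library Corin ranged from 0.01 to 0.06, Npr1 from -0.30 to -0.15, Npr2 from 0.03 to 0.10 and Npr3 from -0.50 to -0.04.

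The number of members called was 2 with no filter, 0 with robust dispersions or the atrial score, and 0 to 2 with a library left out. Ligand and processing genes called were 0 with upper-quartile factors or the atrial score (0 to 1 with a library left out). Other cyclic GMP sources called were 2 with upper-quartile factors, no filter or DESeq2, 3 with robust dispersions, 0 without mitochondrial-genome transcripts, with 50 counts in 3 libraries or with the atrial score, and 0 to 2 with a library left out. Target genes called were 1 with library size alone or no filter (0 to 2 with a library left out). Phosphodiesterases called were 2 with library size alone, no filter or robust dispersions, 0 with the atrial score, and 0 to 2 with a library left out. Regulators called were 9 with no filter, 3 with the atrial score and 1 to 8 with a library left out. Peptide breakdown genes called were 0 throughout. The log2 ratio difference of Nppb to Nppa ranged from -0.52 to 0.06 and that of Npr3 to Npr1 from -0.34 to 0.15 with a library left out, and reversed to 0.0594 and 0.0239 (without knock-in replicate 1 or wild-type replicate 3) and to 0.01, 0.15 and 0.04 (without knock-in replicate 2, wild-type replicate 2 or wild-type replicate 3). Of all genes, 338 to 1378 were called with a library left out, 1591 of 20092 with no filter and 451 with the atrial score, against 1215. Fits with a library left out have fewer mice, and the cause of the other changes was not tested. No paired analysis was possible because the labels give nothing that pairs mice between the genotypes. The replicate numbers used here follow the order of the samples within each genotype. With 3 mice a genotype, differences of the size seen for Nppa can be missed.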
